A study of Mus musculus with 12 samples.

Results

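The genes described here are 39 genes of DNA replication in mouse bile duct organoids, and they were taken from a list of symbols. The list was chosen with earlier results of these data known, so counts of its genes against all genes only describe it. All 39 were found among the 53700 gene identifiers of the deposited count table, and all 39 passed the filter on low counts that left 15014 genes. They were sorted into 8 classes by the known role of each protein. The classes hold 4 genes of origin licensing, 6 subunits of the MCM helicase, 6 genes of helicase activation, 7 genes of the polymerases and primase, 5 genes of the sliding clamp and its loader, 2 genes that join Okazaki fragments, 5 genes of nucleotide supply, and 4 regulators and repair genes of S phase.

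RNA was sequenced from 12 organoid cultures grown from the intrahepatic bile ducts of 6 mice. Every mouse gave a culture from the hilum, where the large ducts leave the liver, and a culture from the periphery. The groups were Ndr hilar, WT hilar, Ndr peripheral and WT peripheral organoids, each with 3 libraries. Ndr mice (1219, 1220 and 1224) carried the Ndr allele, a missense allele of Jag1, in homozygous form (Jag1 Ndr/Ndr), and WT mice (1221, 1223 and 1225) carried wild-type Jag1 (Jag1+/+). Jag1 encodes a ligand of the Notch receptors, and mutations of the human gene cause most cases of Alagille syndrome, in which bile ducts are too few. All cultures were untreated and were collected at passage 5. WT mice 1221 and 1223 were derived on day 15 of the same June, Ndr mouse 1219 on day 17, Ndr mouse 1220 on day 18, and Ndr mouse 1224 and WT mouse 1225 on day 21. Age is not given in the sources used here. Wherever 3 values of a group are given, their order is mouse 1219, 1220 and 1224 for Ndr and mouse 1221, 1223 and 1225 for WT.

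Replication begins when the origin recognition complex, Cdc6 and Cdt1 load rings of the Mcm2 to Mcm7 proteins onto DNA in G1. In S phase, Cdc45 and the GINS complex turn each ring into an active helicase, DNA polymerase alpha with its primase lays down primers, and polymerases delta and epsilon extend them while held by the Pcna clamp. Most of these genes are transcribed around the G1 to S transition under the control of E2F factors, so their summed RNA is widely used as a sign of cycling cells. Adult bile duct cells in the liver rarely divide, whereas in organoid culture they proliferate.

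Promoter sequence is shown first because E2F control is the best known shared feature of these genes. Whether known E2F control shaped the list of symbols is not recorded here, so the shares below only describe the list. RefSeq windows on GRCm38.p6, which run from 250 bases before to 50 bases after an annotated start, were at hand for 32 of the 39 genes. They were searched on both strands for 4 words of the E2F site, TTTCCCGC, TTTCGCGC, TTTGCCGC and TTTGGCGC. A word was present for 13 of the 32 genes (40.6%), against 2.61% of all 27025 genes with a window and 4.71% of the 9993 tested genes with one. It was present for 4 of 5 MCM genes and 3 of 4 origin licensing genes, but for 0 of 5 nucleotide supply genes and 0 of 23 mitosis genes. The word CCAAT, which NF-Y binds, was present for 59.4% of the replication genes, 78.3% of the mitosis genes and 43.4% of the tested genes. A match is a description of letters in a window. The 200 bases upstream of the start are printed below for 5 genes that have such a word in them. Mcm6 and Mcm5 show a pair of overlapping words. Orc1, Cdc6 and Uhrf1 were picked because their unadjusted p by edgeR was under 0.05 for genotype in the hilum, for region in Ndr mice and for the interaction. Mcm7, Rfc3, Gins3 and Pola1 also have such a word there and are not printed. Their log2 differences, Ndr minus WT in the hilum, were -0.47, 0.43, -0.06 and -0.63. Hilar minus peripheral in Ndr mice, they were -0.48, 0.26, -0.09 and -0.81. The sequences run 5′ to 3′ on the strand of the gene, with the E2F words in capitals. The windows are those of Mcm6 (chr1:128359706-128359905, minus strand), Mcm5 (chr8:75109309-75109508, plus strand), Orc1 (chr4:108579254-108579453, plus strand), Cdc6 (chr11:98907951-98908150, plus strand) and Uhrf1 (chr17:56304113-56304312, plus strand). In the Mcm6 and Mcm5 windows, a pair of words on opposite strands overlaps and forms 1 run of capitals.
Mcm6: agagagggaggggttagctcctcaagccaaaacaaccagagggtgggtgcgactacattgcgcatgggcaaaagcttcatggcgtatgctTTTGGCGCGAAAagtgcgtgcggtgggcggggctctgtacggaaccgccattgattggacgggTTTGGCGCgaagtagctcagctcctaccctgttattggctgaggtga
Mcm5: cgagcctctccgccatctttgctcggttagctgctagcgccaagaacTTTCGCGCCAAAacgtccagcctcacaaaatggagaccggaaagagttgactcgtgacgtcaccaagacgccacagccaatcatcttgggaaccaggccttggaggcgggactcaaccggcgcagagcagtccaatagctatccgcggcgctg
Orc1: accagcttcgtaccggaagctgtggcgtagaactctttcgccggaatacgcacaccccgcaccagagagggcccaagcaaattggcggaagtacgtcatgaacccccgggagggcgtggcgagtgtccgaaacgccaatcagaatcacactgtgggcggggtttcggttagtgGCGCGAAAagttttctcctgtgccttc
Cdc6: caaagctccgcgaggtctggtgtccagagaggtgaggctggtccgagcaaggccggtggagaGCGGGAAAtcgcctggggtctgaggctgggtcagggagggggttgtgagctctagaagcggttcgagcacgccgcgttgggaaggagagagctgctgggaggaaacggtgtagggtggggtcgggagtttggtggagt
Uhrf1: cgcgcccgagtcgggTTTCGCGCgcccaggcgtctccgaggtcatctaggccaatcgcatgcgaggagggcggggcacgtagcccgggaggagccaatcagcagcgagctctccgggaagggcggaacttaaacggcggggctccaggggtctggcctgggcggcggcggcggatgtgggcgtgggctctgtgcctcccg

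The libraries held 6708822 to 16030880 gene counts, and mitochondrially encoded genes took 0.582% to 4.31% of them. Levels are given as CPM, read counts scaled to a common library size after TMM scaling. The label of the cells held: the 11 cholangiocyte markers summed to between 10602 and 19830 CPM in every library, led by Spp1 and Krt18. Fibroblast and stellate markers summed to at most 1.79 CPM, with Dcn and Lum at 0, and endothelial markers to at most 0.530 CPM, with Kdr and Emcn at 0. Immune markers summed to between 9.90 and 40.1 CPM, led by Csf1r, with Adgre1 at 0. The 7 hepatocyte markers summed to 38.6 to 96.5 CPM in Ndr hilar organoids, 2.51 to 21.9 CPM in WT hilar, 8.87 to 22 CPM in Ndr peripheral and 2.33 to 13.9 CPM in WT peripheral organoids. Of those 7, only Ttr and Alb passed the filter on low counts, and Cps1 was at 0. Hepatocyte marker RNA was thus highest in the group in which replication genes had their lowest mean, and its part in the results was not tested. Jag1 averaged 141 ± 53.3 CPM in Ndr hilar, 119.7 ± 59.3 CPM in WT hilar, 103 ± 44.8 CPM in Ndr peripheral and 127.9 ± 44.9 CPM in WT peripheral organoids (SD, n = 3 each). A missense allele need not alter the RNA level, so these values do not check the labels.

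Replication genes varied more between cultures than most genes did. The SD of log2 CPM over the 12 libraries had a median of 0.64 over the 39 genes and 0.43 over all 15014 genes. Among the members it was highest for Rrm2 (1.30) and Mcm10 (1.18) and lowest for Slbp (0.29). A mean over the 39 genes of log2 CPM, each centred on its own mean, was 0.01, -0.85 and -0.71 in Ndr hilar organoids and -0.24, -0.79 and 1.18 in WT hilar organoids. In peripheral organoids it was 0.10, 0.93 and 0.25 for Ndr and -0.11, 0.06 and 0.16 for WT. WT hilar 1225 and Ndr peripheral 1220 thus stood above all other libraries, WT peripheral organoids kept close together, and the WT hilar group alone covered almost the whole range. WT hilar 1225 was the highest library for 28 of the 39 genes, Ndr peripheral 1220 for 10 and Ndr hilar 1219 for 1, which was Rfc3. The lowest library was WT hilar 1223 for 17 genes, Ndr hilar 1220 for 16, Ndr hilar 1224 for 4 and WT peripheral 1225 for 2. The medians of the 39 genes on raw counts are therefore also given without WT hilar 1225 or Ndr peripheral 1220 where they rest on them.

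**Figure D1:**
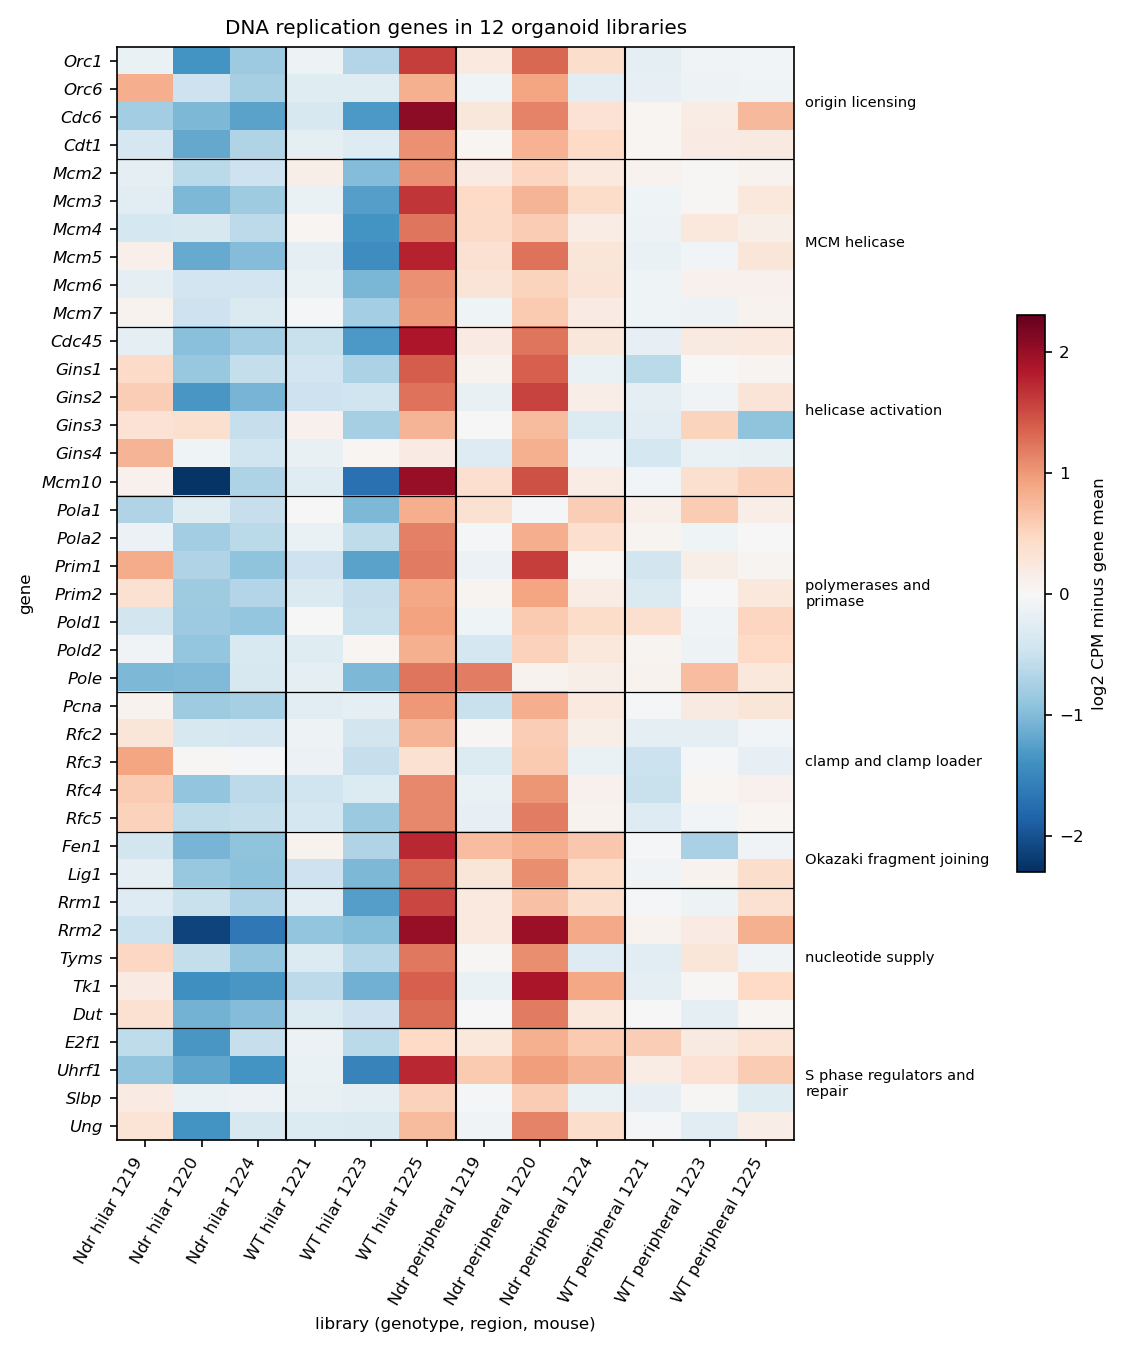
Each row is a gene, each column a library and the colour the log2 CPM minus the mean of that gene over the 12 libraries, with role classes at the right. WT hilar 1225 (mean 1.18 over the 39 genes) and Ndr peripheral 1220 (mean 0.93) are red in nearly all rows, and Ndr hilar 1220 (mean -0.85), Ndr hilar 1224 (-0.71) and WT hilar 1223 (-0.79) are blue.

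Origin licensing genes mark and prepare the sites where replication starts. Orc6 (ENSMUSG00000031697) had 59.2, 23.9 and 19.4 CPM in Ndr hilar organoids, against 27.3, 27.2 and 58.3 CPM in WT hilar organoids. Peripheral Orc6 values were 31, 62.4 and 27.8 CPM in Ndr organoids and 29, 30.7 and 30.8 CPM in WT organoids. Orc6, the smallest subunit of the origin recognition complex, was high in Ndr hilar 1219, WT hilar 1225 and Ndr peripheral 1220, and the genotypes overlapped in both regions. Orc1 (ENSMUSG00000028587) had 5.42, 2.22 and 3.32 CPM in Ndr hilar organoids, against 5.55, 3.71 and 18.6 CPM in WT hilar organoids. Peripheral Orc1 values were 7.13, 15.4 and 8.05 CPM in Ndr organoids and 5.21, 5.74 and 5.83 CPM in WT organoids. For Orc1, an ATP-binding subunit of that complex, each Ndr peripheral value lay above each WT peripheral value and above each Ndr hilar value, while the hilar genotypes overlapped. Cdc6 (ENSMUSG00000017499) had 5.42, 4.57 and 3.96 CPM in Ndr hilar organoids, against 7.38, 3.71 and 40.7 CPM in WT hilar organoids. Peripheral Cdc6 values were 11.5, 21.5 and 12.1 CPM in Ndr organoids and 9.92, 10.9 and 16.2 CPM in WT organoids. Cdc6, the loading ATPase, was lowest in WT hilar 1223 and highest in WT hilar 1225, so that a single WT group held both extremes. Cdt1 (ENSMUSG00000006585) had 15.8, 9.01 and 12.6 CPM in Ndr hilar organoids, against 17.8, 16.7 and 43 CPM in WT hilar organoids. Peripheral Cdt1 values were 21.3, 35.9 and 28.4 CPM in Ndr organoids and 21.3, 23.7 and 23.7 CPM in WT organoids. Cdt1, which brings the helicase to the origin, was the only member with each Ndr hilar value below each WT hilar value, against 4.18% of all genes. Each Ndr hilar value of Cdt1 also lay below each Ndr peripheral value.

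The MCM helicase is a ring that opens the DNA ahead of the polymerases. Mcm6 (ENSMUSG00000026355) had 111, 94.4 and 94.1 CPM in Ndr hilar organoids, against 114, 61.5 and 264 CPM in WT hilar organoids. Peripheral Mcm6 values were 157, 182 and 158 CPM in Ndr organoids and 119, 137 and 137 CPM in WT organoids. In the hilum the WT values lay on both sides of the Ndr values, whereas in the periphery each Ndr value lay above each WT value. Mcm3 (ENSMUSG00000041859) had 52.2, 30.04 and 35.1 CPM in Ndr hilar organoids, against 55.7, 25.6 and 193 CPM in WT hilar organoids. Peripheral Mcm3 values were 85.1, 107 and 82.6 CPM in Ndr organoids and 57.6, 62.9 and 73 CPM in WT organoids. Mcm3, another ring subunit, likewise had WT hilar values on both sides of the Ndr hilar values and each Ndr peripheral value above each WT peripheral value. The other subunits Mcm2, Mcm4, Mcm5 and Mcm7 ranged from 18.1 CPM (Mcm5 in WT hilar 1223) to 182 CPM (Mcm4 in WT hilar 1225). Of the 6 subunits, 5 had each Ndr hilar value below each Ndr peripheral value, and Mcm7 was the exception. Of all 15014 genes, 7.93% were lower in this way, a share that applies to the classes below too.

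Helicase activation genes turn the loaded ring into a moving fork. Gins4 (ENSMUSG00000031546) had 53.4, 29 and 22.7 CPM in Ndr hilar organoids, against 27.7, 32.3 and 35.7 CPM in WT hilar organoids. Peripheral Gins4 values were 25.2, 54.7 and 29.4 CPM in Ndr organoids and 23.4, 27.9 and 27.7 CPM in WT organoids. Gins4, a GINS subunit, was high in Ndr hilar 1219 and Ndr peripheral 1220 and overlapped between all groups. The other members of the class were Cdc45, Gins1, Gins2, Gins3 and Mcm10, which spanned 1.96 CPM (Mcm10 in Ndr hilar 1220) to 41.3 CPM (Mcm10 in WT hilar 1225). Cdc45 and Mcm10, a fork factor that stimulates the helicase, had each Ndr hilar value below each Ndr peripheral value, and none of the GINS genes did. Gins2 shares 67.3% of its exon length with Gse1 on the opposite strand in GENCODE M21, and the library kit named in the labels does not mark strand. Reads of the overlapping genes therefore cannot be told apart, and its counts are uncertain.

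Polymerases and primase copy the DNA. Pola1 (ENSMUSG00000006678) had 23.5, 31.4 and 26.3 CPM in Ndr hilar organoids, against 38.6, 18.5 and 68.2 CPM in WT hilar organoids. Peripheral Pola1 values were 48.6, 37 and 56.5 CPM in Ndr organoids and 41.6, 57.5 and 42.7 CPM in WT organoids. Pola1, the catalytic subunit of polymerase alpha, had each Ndr hilar value below each Ndr peripheral value and overlapped between genotypes. Pold1 (ENSMUSG00000038644) had 18.8, 14 and 13.4 CPM in Ndr hilar organoids, against 25.3, 17.6 and 48.1 CPM in WT hilar organoids. Peripheral Pold1 values were 23.3, 38.4 and 33.6 CPM in Ndr organoids and 32.4, 23.7 and 35.5 CPM in WT organoids. Pold1, the catalytic subunit of polymerase delta, showed the same, and in the hilum the genotypes overlapped only through WT 1223 and Ndr 1219. Pold2 (ENSMUSG00000020471) had 34.8, 19.9 and 28.9 CPM in Ndr hilar organoids, against 30.1, 37.8 and 64.8 CPM in WT hilar organoids. Peripheral Pold2 values were 27.7, 53 and 43.5 CPM in Ndr organoids and 38.2, 34 and 50.3 CPM in WT organoids. Pold2, an accessory subunit of the same enzyme, overlapped in every pair of groups. Pole (ENSMUSG00000007080) had 9.48, 9.54 and 15.1 CPM in Ndr hilar organoids, against 16.9, 9.42 and 46.1 CPM in WT hilar organoids. Peripheral Pole values were 44.5, 20.8 and 21.6 CPM in Ndr organoids and 20.8, 32.2 and 23.2 CPM in WT organoids. Pole, the catalytic subunit of polymerase epsilon, was highest in WT hilar 1225 and Ndr peripheral 1219, and again each Ndr hilar value lay below each Ndr peripheral value. Pola2, Prim1 and Prim2, the partners of Pola1 in priming, spanned 7.57 CPM (Prim1 in WT hilar 1223) to 55.4 CPM (Pola2 in WT hilar 1225).

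The clamp Pcna holds polymerases on DNA, and the Rfc proteins load it. Pcna (ENSMUSG00000027342) had 80.7, 43.1 and 45.1 CPM in Ndr hilar organoids, against 64.1, 65.3 and 153 CPM in WT hilar organoids. Peripheral Pcna values were 53.4, 136 and 89.1 CPM in Ndr organoids and 74, 88.2 and 93.1 CPM in WT organoids. WT hilar 1225 and Ndr peripheral 1220 were highest and all groups overlapped. Rfc2 (ENSMUSG00000023104) had 50.6, 32.1 and 31.9 CPM in Ndr hilar organoids, against 38.4, 30.9 and 72.2 CPM in WT hilar organoids. Peripheral Rfc2 values were 42.8, 62.1 and 45.7 CPM in Ndr organoids and 35.8, 36.2 and 39.7 CPM in WT organoids. Rfc2 was higher in each Ndr than in each WT peripheral library, with overlap in the hilum. Rfc3 (ENSMUSG00000033970) had 39.7, 21.4 and 20.4 CPM in Ndr hilar organoids, against 19.1, 14.5 and 27 CPM in WT hilar organoids. Peripheral Rfc3 values were 16.8, 32.2 and 19 CPM in Ndr organoids and 15, 20.7 and 18.5 CPM in WT organoids. Rfc3 was the only member whose highest library was Ndr hilar 1219. Rfc4 and Rfc5, the other loader subunits measured, ranged from 8.23 CPM (Rfc4 in Ndr hilar 1220) to 60.3 CPM (Rfc5 in Ndr peripheral 1220). None of the 5 genes of this class separated Ndr hilar from Ndr peripheral organoids, against 7.93% of all genes lower and 7.49% higher in the hilum.

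Okazaki fragments, the short pieces of the lagging strand, are trimmed by Fen1 and joined by Lig1. Lig1 (ENSMUSG00000056394) had 35.1, 22.2 and 21.1 CPM in Ndr hilar organoids, against 29, 19.8 and 104 CPM in WT hilar organoids. Peripheral Lig1 values were 49.1, 85.5 and 54.3 CPM in Ndr organoids and 38.6, 43.1 and 54.1 CPM in WT organoids. For Lig1, each Ndr hilar value lay below each Ndr peripheral value, and the genotypes overlapped in both regions. Fen1 (ENSMUSG00000024742) had 1.55, 0.914 and 1.02 CPM in Ndr hilar organoids, against 2.26, 1.24 and 7.54 CPM in WT hilar organoids. Peripheral Fen1 values were 3.62, 3.96 and 3.39 CPM in Ndr organoids and 2.10, 1.20 and 2.01 CPM in WT organoids. Fen1 separated Ndr hilar from Ndr peripheral and Ndr peripheral from WT peripheral organoids. It was also the least covered member, with 7 to 60 counts per library, and 84.2% of its exon length lies opposite Tmem258 or Gm10143, so its counts are uncertain too.

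Nucleotide supply genes make the building blocks of DNA. Rrm1 (ENSMUSG00000030978) had 90.5, 77.6 and 67.8 CPM in Ndr hilar organoids, against 94.5, 46 and 323 CPM in WT hilar organoids. Peripheral Rrm1 values were 130.4, 178 and 148 CPM in Ndr organoids and 108, 102 and 143 CPM in WT organoids. Rrm2 (ENSMUSG00000020649) had 31.8, 10.1 and 14.2 CPM in Ndr hilar organoids, against 23.8, 22.6 and 179 CPM in WT hilar organoids. Peripheral Rrm2 values were 52.3, 175 and 81.8 CPM in Ndr organoids and 47.1, 50.7 and 78.9 CPM in WT organoids. Rrm1 and Rrm2 encode the subunits of ribonucleotide reductase, and for both each Ndr hilar value lay below each Ndr peripheral value. Rrm2 reached almost the same level in WT hilar 1225 and Ndr peripheral 1220. Tk1 (ENSMUSG00000025574) had 23.1, 7.45 and 7.92 CPM in Ndr hilar organoids, against 13.2, 9.27 and 52.8 CPM in WT hilar organoids. Peripheral Tk1 values were 18.2, 74.8 and 37.8 CPM in Ndr organoids and 17.2, 20.7 and 28 CPM in WT organoids. Tk1, which salvages thymidine, was high in those same libraries and overlapped in every pair of groups. Tyms, which makes thymidylate, and Dut, which removes dUTP, ranged from 13.9 CPM (Tyms in Ndr hilar 1224) to 106 CPM (Dut in WT hilar 1225).

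The last class holds a transcription factor, a chromatin protein, a histone mRNA binding protein and a repair enzyme. E2f1 (ENSMUSG00000027490) had 10.7, 6.27 and 11.2 CPM in Ndr hilar organoids, against 14.8, 10.5 and 22.2 CPM in WT hilar organoids. Peripheral E2f1 values were 19.1, 28.8 and 24.8 CPM in Ndr organoids and 24.1, 18.7 and 20.2 CPM in WT organoids. E2f1, which drives entry into S phase, was lower in each Ndr hilar library than in each Ndr peripheral library and overlapped between genotypes in both regions. Uhrf1 (ENSMUSG00000001228) had 17.5, 14.2 and 12.6 CPM in Ndr hilar organoids, against 29.6, 11.3 and 109.8 CPM in WT hilar organoids. Peripheral Uhrf1 values were 50.1, 64.6 and 56.5 CPM in Ndr organoids and 37.1, 41.5 and 49.8 CPM in WT organoids. Uhrf1, which carries DNA methylation over to the new strand, had its Ndr hilar values close together and far below its Ndr peripheral values, with WT hilar values on both sides. Slbp (ENSMUSG00000004642) had 54.4, 42.8 and 43.5 CPM in Ndr hilar organoids, against 42.5, 40.8 and 69.2 CPM in WT hilar organoids. Peripheral Slbp values were 46.8, 71.2 and 42.9 CPM in Ndr organoids and 41.7, 48.7 and 39.2 CPM in WT organoids. Slbp, which binds the stem-loop of histone mRNAs, moved least of all members and overlapped in every pair of groups. Ung, which removes uracil from DNA, ranged from 4.05 CPM in Ndr hilar 1220 to 24.1 CPM in Ndr peripheral 1220.

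Levels can be compared between genes only per exon length. The length used here merges all annotated exons of a gene and not those of the transcripts expressed, so the order is approximate. Rrm1, with a mean of 126 CPM and 11012 bp of merged exons, ranked 12. Per kb of exon, Pcna had the highest mean level (34.2 CPM per kb), followed by Mcm6 (29.1), Gins4 (24), Mcm4 (23.6) and Rrm2 (23.1). Fen1 (1.06 CPM per kb) and Mcm10 (1.76) had the lowest mean levels per kb. Fen1 shares 84.2% and Gins2 67.3% of exon length with other genes, so their levels per kb and ranks are uncertain.

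**Figure D2:**
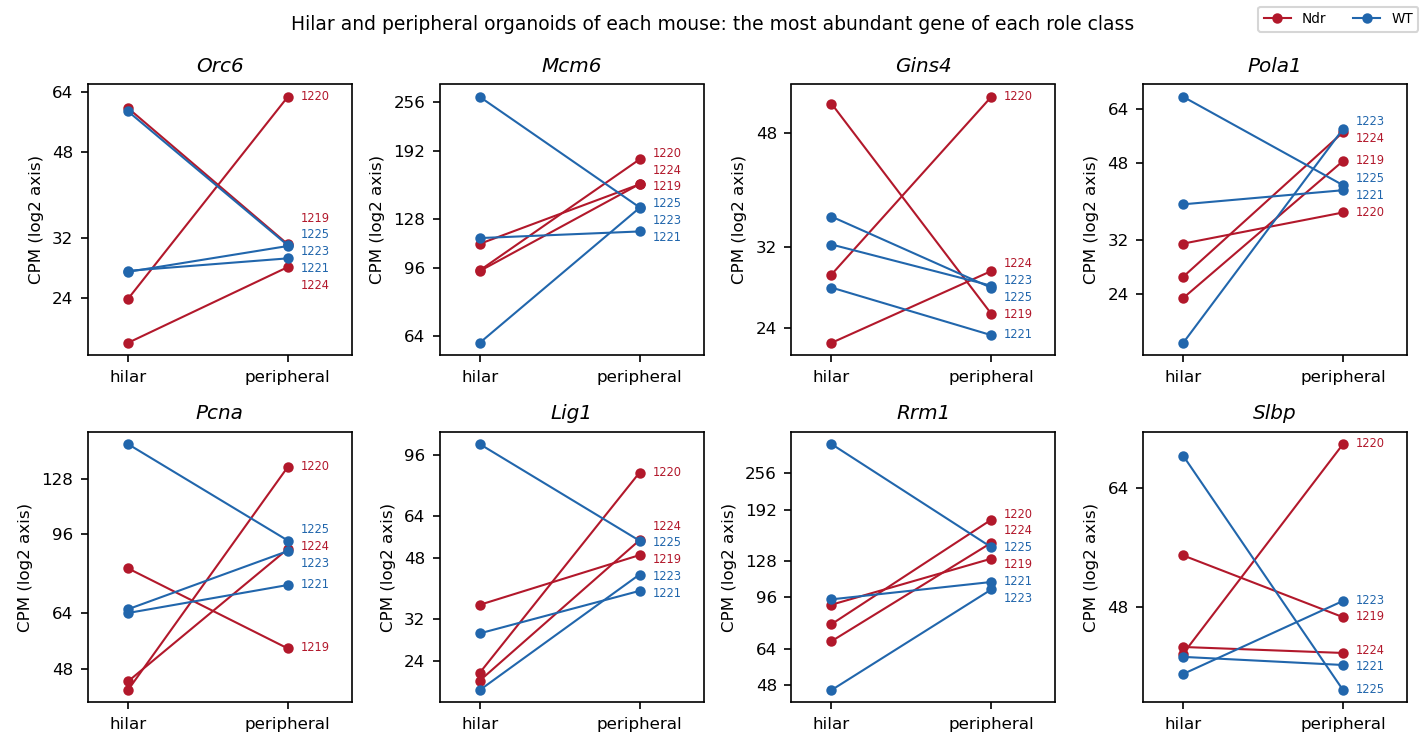
CPM (log2 axis) of the most abundant gene of each role class in the hilar and peripheral organoids of each mouse, with a line per mouse (Ndr red, WT blue). Mcm6, Pola1, Lig1 and Rrm1 climb towards the periphery in all 3 Ndr mice, whereas WT mouse 1225 has its hilar value on top in all 8 panels.

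In hilar organoids, the question was whether replication genes differ between Ndr and WT. Ndr hilar organoids had lower fitted values for 37 of the 39 genes, but the difference was within the spread between cultures. Gins4 and Rfc3 had the only values above 0 (2 of 39, against 49.5% of all genes). The median log2 difference, Ndr minus WT, was -0.74 over the 39 genes and -0.00 over all 15014 genes. Values below 0 were found for 50.5% of all genes. Origin licensing (median -1.19) and Okazaki fragment joining (-1.30) had the lowest class medians, and the clamp and its loader (-0.31) the nearest to 0. Okazaki fragment joining holds only 2 genes, Lig1 (-0.96) and Fen1 (-1.64), and the counts of Fen1 are uncertain.

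Uhrf1 averaged 14.8 ± 2.48 CPM in Ndr hilar and 50.2 ± 52.4 CPM in WT hilar organoids (SD, n = 3 each), a log2 difference of -1.76 (SE 0.604, adjusted p = 0.750). Cdt1 averaged 12.5 ± 3.38 CPM in Ndr hilar and 25.8 ± 14.9 CPM in WT hilar organoids, a log2 difference of -1.04 (SE 0.372, adjusted p = 0.750). Pold1 averaged 15.4 ± 2.94 CPM in Ndr and 30.3 ± 15.9 CPM in WT hilar organoids, with a log2 difference of -0.98 (SE 0.355). Fen1 and Cdc6 had log2 differences of -1.64 (SE 0.603) and -1.88 (SE 0.710). The SDs of the WT hilar group were as large as its means for Uhrf1 and Cdc6, because WT hilar 1225 lay far above WT hilar 1221 and 1223.

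By edgeR's quasi-likelihood test, 0 of the 39 genes and 0% of all tested genes passed an adjusted p of 0.05, and the smallest adjusted p of a member was 0.750. At an unadjusted p under 0.05, 9 members were lower (Orc1, Cdc6, Cdt1, Mcm3, Pold1, Fen1, Rrm2, E2f1 and Uhrf1) and 0 higher, against 3.68% of all genes lower. DESeq2 called 0 members and 41 genes. Cdt1 was the 1 member whose groups did not overlap with Ndr lower, against 4.18% of all genes. Without WT hilar 1225 the median was 0.11, with 23 genes above and 16 below 0, so the lower Ndr values rest on that library. On day 21, the only date with both genotypes, Ndr 1224 had a lower hilar value than WT 1225 for 39 of 39 genes, with a median log2 difference of -1.78, and that pair includes the same library. In bulk RNA, fewer cells that express these genes and less RNA of them per cell cannot be told apart.

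In peripheral organoids, Ndr cultures had higher fitted values than WT cultures for all 39 genes, against 54.5% of all genes, and lower ones for 0, against 45.5%, but none passed the test. The median log2 difference was 0.43 over the 39 genes and 0.03 over all genes. Class medians ran from 0.19 for the polymerases and primase to 0.76 for Okazaki fragment joining. The latter rests on Lig1 (0.48) and Fen1 (1.03), and the counts of Fen1 are uncertain. Fen1 averaged 3.65 ± 0.290 CPM in Ndr and 1.77 ± 0.499 CPM in WT peripheral organoids (SD, n = 3 each), a log2 difference of 1.03 (SE 0.582, adjusted p = 1.0). Orc1 averaged 10.2 ± 4.52 CPM in Ndr and 5.59 ± 0.335 CPM in WT peripheral organoids, with a log2 difference of 0.86 (SE 0.570). Tk1, Rfc2 and Gins4 followed with log2 differences of 0.99 (SE 0.696), 0.43 (SE 0.315) and 0.47 (SE 0.349).

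Groups did not overlap for 7 members, all higher in Ndr (Orc1, Mcm2, Mcm3, Mcm6, Rfc2, Fen1 and Uhrf1), against 5.41% of all genes higher and 3.61% lower. By edgeR, 0 members and 0% of genes passed an adjusted p of 0.05, and at an unadjusted p under 0.05 there were 0 members, against 1.45% of genes higher and 1.47% lower. DESeq2 called 0 members and 6 genes. Without Ndr peripheral 1220 the median was 0.11, with 28 genes above 0. On day 21, Ndr 1224 had higher peripheral values than WT 1225 for 26 of 39 genes, with a median of 0.05. With derivation date as a factor the median was -0.49, and in that fit only day 21 compares the genotypes within a date.

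**Figure D3:**
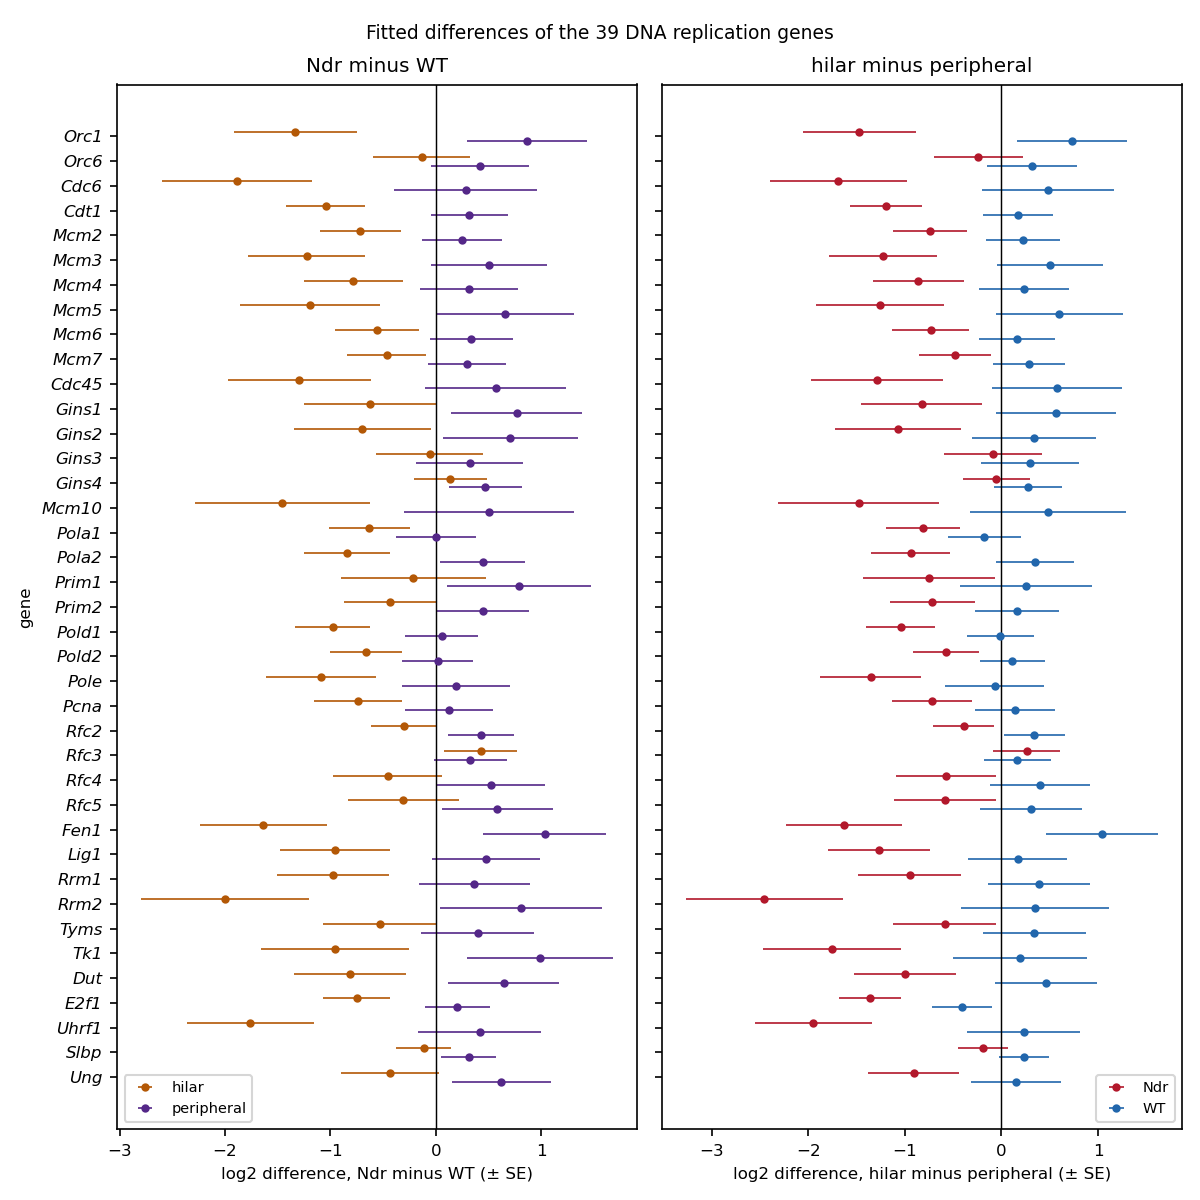
Fitted log2 differences (± SE) of the 39 genes, Ndr minus WT in hilar and in peripheral organoids at the left and hilar minus peripheral in Ndr and in WT organoids at the right. Hilar Ndr minus WT values are below 0 for 37 genes and peripheral ones above 0 for 39; hilar minus peripheral values are below 0 for 38 genes in Ndr and above 0 for 35 in WT.

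When the hilar and peripheral raw counts of a mouse were summed, the fitted genotype differences lay on both sides of 0. Values were above 0 for 15 genes and below 0 for 24, against 49.3% and 50.7% of all 15401 genes tested on mouse totals, and the median log2 difference was -0.05. Rfc3 averaged 25 ± 4.56 CPM in Ndr mice and 19.4 ± 2.86 CPM in WT mice (SD, n = 3 each), a log2 difference of 0.36 (SE 0.195, adjusted p = 0.903). Gins4, Pola1, Pold1 and Pold2 had log2 differences of 0.31 (SE 0.200), -0.27 (SE 0.182), -0.32 (SE 0.263) and -0.26 (SE 0.230). By edgeR 0 members passed an adjusted p of 0.05, as did 0% of all genes, and 0 members had an unadjusted p under 0.05, against 2.49% of genes higher and 2.93% lower. DESeq2 called 0 members and 113 genes. No member separated the genotypes (0 of 39, against 5.49% of genes higher and 5.78% lower). Without WT mouse 1225 the median was 0.37, with 36 genes above 0, and without each other mouse in turn it lay between -0.25 and 0.04, so its sign depended on the mouse left out. With derivation date as a factor the median was -0.82, with 39 of 39 genes below 0, and on the deposited normalized values it was -0.91.

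Within Ndr mice, hilar organoids had lower values than peripheral organoids for 38 of the 39 genes, Rfc3 being the exception. The median log2 difference, hilar minus peripheral, was -0.91 over the 39 genes and -0.01 over all genes, and 51.3% of all genes lay below 0. The groups did not overlap for 20 genes, all lower in the hilum, against 7.93% of all genes lower and 7.49% higher. Those 20 held 3 of 4 origin licensing genes, 5 of 6 MCM subunits, 4 of 7 polymerase and primase genes, both genes of Okazaki fragment joining and both ribonucleotide reductase subunits. The other members of the 20 were Cdc45, Mcm10, E2f1 and Uhrf1, and 0 of 5 clamp and clamp loader genes were among them.

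E2f1 averaged 9.41 ± 2.73 CPM in Ndr hilar and 24.2 ± 4.85 CPM in Ndr peripheral organoids (SD, n = 3 each), a log2 difference of -1.36 (SE 0.320, adjusted p = 0.418). Uhrf1 averaged 14.8 ± 2.48 CPM in Ndr hilar and 57.1 ± 7.26 CPM in Ndr peripheral organoids, a log2 difference of -1.95 (SE 0.607, adjusted p = 0.418). Rrm2 averaged 18.7 ± 11.6 CPM in Ndr hilar and 103 ± 63.9 CPM in Ndr peripheral organoids, with a log2 difference of -2.46 (SE 0.810). Cdt1 and Pold1 had log2 differences of -1.19 (SE 0.372) and -1.04 (SE 0.354).

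By edgeR, 0 members and 0% of all genes passed an adjusted p of 0.05, and at an unadjusted p under 0.05 there were 13 members lower and 0 higher, against 5.7% of genes lower and 4.61% higher. DESeq2 called 72 genes, of which 1 was a member: E2f1, with a log2 difference of -1.35 and an adjusted p = 0.0257. With 3 libraries in each group, the smallest two-sided p of an exact permutation test that ignores the pairing by mouse is 0.1. With the pairing kept, the smallest p is larger. Mouse by mouse, the hilar minus peripheral median was -0.12 in Ndr 1219, with 20 genes lower and 19 higher in the hilum. It was -1.76 in Ndr 1220, with 39 of 39 lower, and -0.97 in Ndr 1224, with 37 of 39 lower. Of the members, only the 20 that separated the Ndr regions were lower in the hilum in all 3 Ndr mice, against 12.8% of all genes. For those 20 this follows from the separation itself. Without Ndr peripheral 1220 the median over the fit was -0.64 with 33 genes below 0, and without Ndr hilar 1219 it was -1.22 with 39 below 0.

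Exon length moved with the libraries too. Genes of up to 1500 bp exceeded genes over 6000 bp by 0.83 in Ndr hilar 1219 and by 0.62 in Ndr peripheral 1220, and the difference was -0.64 in Ndr hilar 1220 (medians of centred log2 CPM). In WT organoids the difference was 0.50 in hilar 1223 and -0.42 in hilar 1221. In the other libraries it lay between -0.31 and 0.13. The part of exon length in the results was not tested beyond a fit with that trend removed. The 20 genes that separated the Ndr regions had a median exon length of 4264 bp, and the other 19 a median of 3868 bp. With the length trend of each library removed, 19 members were lower in the hilum in all 3 Ndr mice, against 14.7% of all genes. The hilar minus peripheral medians of the members were then 0.08 in Ndr 1219, the opposite sign to the value above, -1.85 in Ndr 1220 and -0.96 in Ndr 1224.

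In WT mice, the direction between hilar and peripheral organoids differed from mouse to mouse. The fitted hilar minus peripheral difference was above 0 for 35 of 39 genes, against 53.9% of all genes, with a median of 0.28. The median was -0.11 in WT 1221, with 26 of 39 genes lower in the hilum, -0.78 in WT 1223, with 36 lower, and 0.98 in WT 1225, with 39 of 39 higher. Only Gins4 and Fen1 were higher in the hilum in all 3 WT mice (2 of 39 genes, against 10.3% of all genes), and 0 were lower in all 3, against 9.35% of all genes. Fen1 averaged 3.68 ± 3.38 CPM in the WT hilum and 1.77 ± 0.499 CPM in the WT periphery (SD, n = 3 each), a log2 difference of 1.04 (SE 0.584, adjusted p = 1.0). E2f1 averaged 15.9 ± 5.93 CPM in the WT hilum and 21 ± 2.81 CPM in the WT periphery, with a log2 difference of -0.41 (SE 0.313). Orc1, Rfc2 and Mcm3 had log2 differences of 0.73 (SE 0.570), 0.34 (SE 0.315) and 0.50 (SE 0.548). By edgeR 0 members and 0% of genes passed an adjusted p of 0.05, 0 members had an unadjusted p under 0.05 (0.286% of genes higher, 0.22% lower), and DESeq2 called 0 members and 0 genes. The groups overlapped for all 39 genes, whereas 2.94% of all genes separated with hilar higher and 2.6% with hilar lower. Without WT hilar 1225 the median was -0.46 with 37 genes below 0, without WT hilar 1221 it was 0.53 and without WT hilar 1223 0.61. With the mouse as a block it was 0.03, with 24 genes above 0.

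Averaged over both genotypes, the region difference was below 0 for 34 of 39 genes, against 47.8% of all genes, with a median of -0.30. E2f1 had the smallest p, with a log2 difference of -0.88 (SE 0.223, adjusted p = 0.786), and its hilar value was below its peripheral value in 5 of 6 mice, WT 1225 being the exception. Pold1, Uhrf1, Cdt1 and Pole had log2 differences of -0.53 (SE 0.248), -0.86 (SE 0.416), -0.51 (SE 0.260) and -0.71 (SE 0.365). By edgeR 0 members and 0% of genes passed an adjusted p of 0.05, and E2f1 was the 1 member with an unadjusted p under 0.05, against 3.37% of genes lower and 2.7% higher. DESeq2 called 0 members and 3 genes. The median was -0.72 without WT hilar 1225, -0.47 without Ndr hilar 1219, -0.17 without WT hilar 1221, -0.13 without WT hilar 1223 and -0.14 without Ndr peripheral 1220.

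The interaction asks whether the hilar minus peripheral difference of Ndr mice differs from that of WT mice. It was below 0 for 38 of 39 genes, against 53.9% of all genes, with a median of -1.06 over the members and -0.05 over all genes, so the region difference of Ndr mice lay below that of WT mice by the fit. Fen1 had a log2 difference of -2.67 (SE 0.837, adjusted p = 0.994), and Orc1 a log2 difference of -2.20 (SE 0.814, adjusted p = 0.994). Cdt1, Uhrf1 and Rrm2 had values of -1.36 (SE 0.521), -2.18 (SE 0.836) and -2.80 (SE 1.11). By edgeR 0 members and 0% of genes passed an adjusted p of 0.05, 8 members had an unadjusted p under 0.05 with values below 0 and 0 members with values above 0, against 1.92% and 1.09% of genes, and DESeq2 called 0 members and 4 genes. Fen1 was the 1 member that was lower in the hilum in all 3 Ndr mice and higher in all 3 WT mice, against 0.579% of all genes. Without WT hilar 1225 the median interaction was -0.33, with 36 genes below 0, and without Ndr peripheral 1220 it was -0.82, with 37 below 0.

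Other lists of the cell cycle were read for context. Of 42 other replication genes, which include Topbp1 and Dnmt1, the most abundant, 35 were below 0 for Ndr minus WT in the hilum (median -0.48, against 50.5% of all genes below 0). Without WT hilar 1225, 16 were below 0 and the median was 0.10. In the periphery 35 of the 42 were above 0 (median 0.36, against 54.5% of all genes), and without Ndr peripheral 1220 it was 25, with a median of 0.09. Hilar minus peripheral values of the same 42 genes were below 0 for 33 in Ndr mice (median -0.69, against 51.3% of all genes), 8 of them at an unadjusted p under 0.05, against 5.7% of all genes lower. Without Ndr peripheral 1220, 32 were below 0 (76.2%, against 46.5% of all genes) with a median of -0.25. In that fit 2 were lower at an unadjusted p under 0.05 (4.76%, against 4.71% of all genes). In the other direction, 1 was higher, against 613 of 15287 genes. Dnmt1, the maintenance methyltransferase that Uhrf1 recruits, averaged 53.3 ± 21.3 CPM in Ndr hilar, 87.1 ± 59.2 CPM in WT hilar, 102 ± 16.8 CPM in Ndr peripheral and 94.6 ± 20.6 CPM in WT peripheral organoids (SD, n = 3 each). Topbp1, which helps Cdc45 load, averaged 96.4 ± 2.73, 127.7 ± 71.9, 135 ± 32.2 and 117 ± 14.5 CPM in the same order of groups.

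Of the 6 S phase cyclins and kinases, led by Cdk1 and Ccna2, 6 were below 0 for Ndr minus WT in the hilum (median -0.63), and 3 without WT hilar 1225 (median -0.02). Hilar minus peripheral values in Ndr mice were below 0 for 6 (median -1.06), and without Ndr peripheral 1220 also for 6 (median -0.49). Of 12 E2F and RB family genes, led by Tfdp1 and E2f4, 9 were below 0 for Ndr minus WT in the hilum (median -0.31), and 9 without WT hilar 1225 (median -0.15). For hilar minus peripheral in Ndr mice 11 of them were below 0 (median -0.44), and 10 without Ndr peripheral 1220 (median -0.27). Of all genes, 50.5% were below 0 for genotype in the hilum (49.9% without WT hilar 1225). For region in Ndr mice 51.3% were (46.5% without Ndr peripheral 1220). At an unadjusted p under 0.05, 2 of the 6 and 5 of the 12 were lower for region in Ndr mice, against 5.7% of all genes. Without Ndr peripheral 1220 these counts were 0 and 2, against 4.71% of all genes. The 12 G1 cyclins and CDK inhibitors, led by Ccnd1 and Ccnd2, had medians of 0.04 for Ndr minus WT in the hilum, and -0.06 without WT hilar 1225. Their median for hilar minus peripheral in Ndr mice was -0.23, and -0.21 without Ndr peripheral 1220. Single genes of this list ran from -1.33 to 0.84 there, with 6 below and 6 above 0, so the median hides opposite directions. At an unadjusted p under 0.05, 2 of the 12 were lower, against 5.7% of all genes. Ccnd1 averaged 477 ± 104 CPM in Ndr hilar and 1199 ± 107 CPM in Ndr peripheral organoids, and Ccnd2 708 ± 222 and 565 ± 524 CPM (SD, n = 3 each).

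Mitosis genes had medians below those of the replication genes in the hilar genotype comparison and in the Ndr region comparison. All 27 were below 0 for Ndr minus WT in the hilum, against 50.5% of all genes, with a median of -1.85 and 20 at an unadjusted p under 0.05, against 3.68% of all genes lower. Their mean centred log2 CPM was -0.54, -1.70 and -1.42 in Ndr hilar organoids and -0.43, -1.05 and 1.98 in WT hilar organoids, so the groups overlapped and WT hilar 1225 stood far above the rest. Without it the median was -0.42, with 25 of 27 below 0, against 49.9% of all genes. In that fit 2 of the 27 were lower at an unadjusted p under 0.05, against 1.94% of all genes. In the periphery the mitosis median for Ndr minus WT was 0.31, below the 0.43 of the replication genes, and -0.08 without Ndr peripheral 1220. Hilar minus peripheral values in Ndr mice had a median of -1.88, with 24 of 27 lower at an unadjusted p under 0.05, against 5.7% of all genes. Without Ndr peripheral 1220 that median was -1.34, with 27 of 27 below 0, against 46.5% of all genes. In that fit 5 of the 27 were lower at an unadjusted p under 0.05, against 4.71% of all genes.

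Top2a, which untangles sister chromatids, averaged 67.1 ± 19.7 CPM in Ndr hilar, 233 ± 238 CPM in WT hilar, 257 ± 57.3 CPM in Ndr peripheral and 218 ± 25.3 CPM in WT peripheral organoids. Mki67, the Ki-67 antigen of cycling cells, averaged 24.04 ± 4.47, 116 ± 134, 111 ± 21.6 and 107 ± 29.8 CPM in the same order of groups. By edgeR with all libraries, 0 genes of these lists passed an adjusted p of 0.05 in any comparison.

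**Figure D4:**
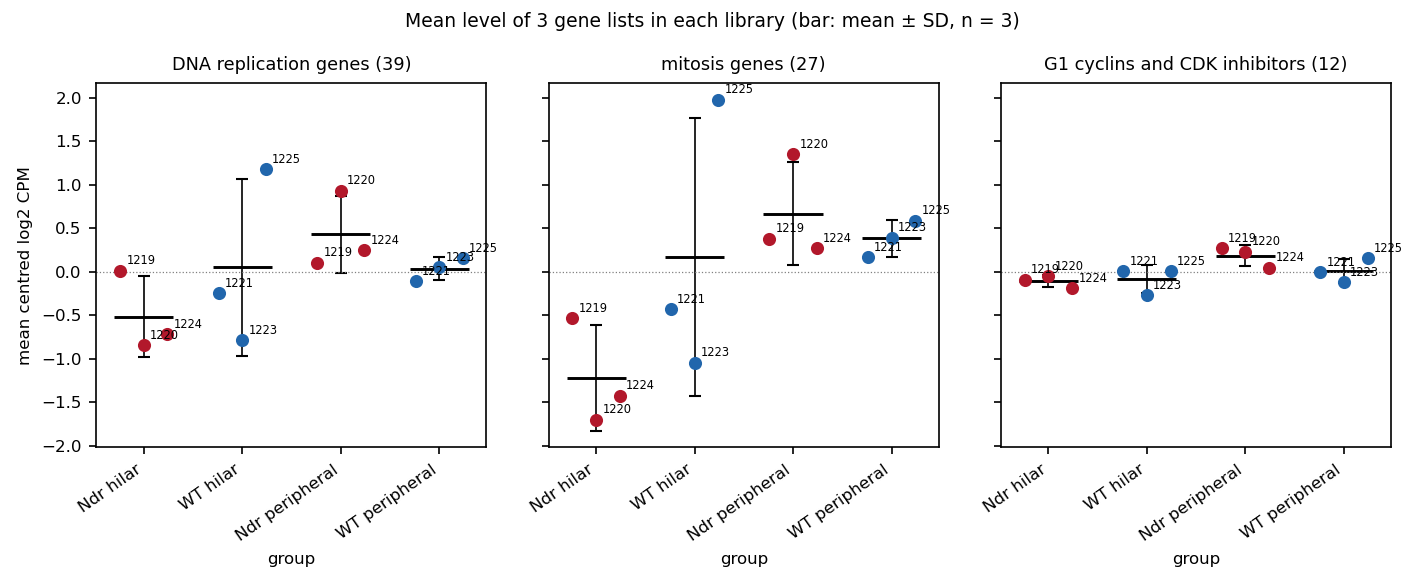
Mean centred log2 CPM of 3 gene lists in each library, grouped by genotype and region, with a point per library labelled by mouse (Ndr red, WT blue) and the group mean ± SD (n = 3). Replication and mitosis genes spread in the same libraries, from -0.85 to 1.18 and from -1.70 to 1.98. The mean of the G1 list, whose single genes differed in both directions, stays between -0.27 and 0.27.

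The genotype comparison of the 39 genes came out differently on the normalized values that the authors deposited beside the raw counts. Summed per mouse, the mean centred log2 value of the 39 genes was 0.01 ± 0.24 in Ndr mice and -0.01 ± 0.53 in WT mice on the raw counts (SD, n = 3 each). On the normalized values it was -0.46 ± 0.06 in Ndr mice and 0.46 ± 0.06 in WT mice. Mcm6, for example, summed to 131, 142 and 132 CPM in Ndr mice and to 118, 104 and 198 CPM in WT mice. Its normalized values summed to 1917, 1908 and 2026 in Ndr mice and to 3461, 2854 and 3165 in WT mice. The genotypes overlapped on the raw scale and were far apart on the normalized scale.

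By limma-trend on log2 of the normalized value plus 1, with all libraries, 37 of the 39 genes passed an adjusted p of 0.05 over both regions, all lower in Ndr, among 7215 of 15401 genes that passed. In the hilum 16 members passed, all lower in Ndr, among 1446 genes. In the periphery 0 members passed among 93 genes, and the median log2 difference of the members was -0.57, the opposite sign to the raw counts. In each library the normalized values were whole multiples of 1 step, in 100% of cells within a tolerance of 0.01. The multiples equalled the raw counts in 1.07% of the 468 cells of the 39 genes and in 43.1% of the cells of all genes. A ComBat-seq adjustment for derivation date that kept genotype, run on the raw counts, gave the same whole numbers in 100% of the cells of the 39 genes and 99.4% of those of all genes. A run that kept no group gave them in 0.855% and 44.8%. No header or label used here records such a step. Since only day 21 holds both genotypes, date and genotype cannot be told apart in the other 4 mice. The SD between mice was 0.24 in Ndr and 0.53 in WT on the raw counts, and 0.06 in both on the normalized values. The limma-trend fit took the adjusted values as given. Its calls therefore do not weigh genotype against the spread between mice in the raw counts.

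**Figure D5:**
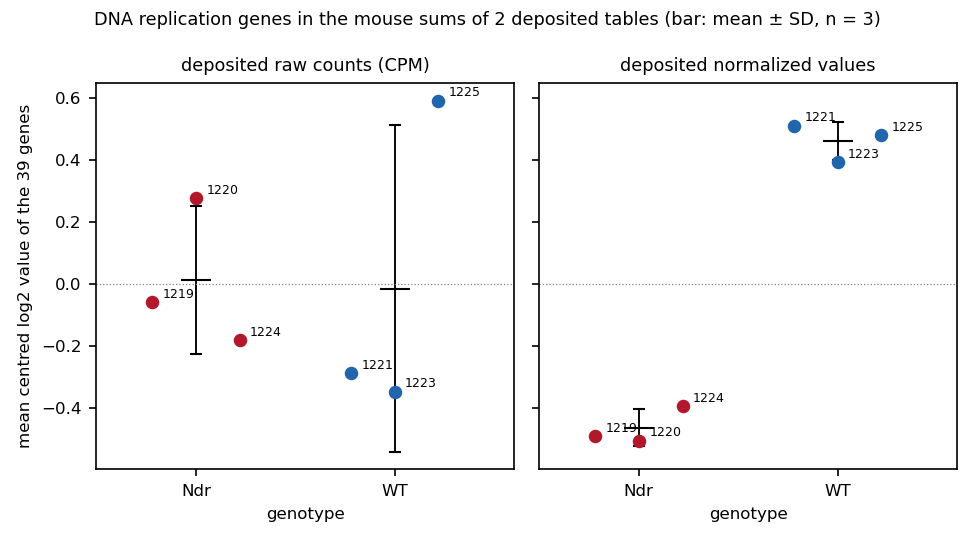
Mean centred log2 value of the 39 genes in the sum of the 2 libraries of each mouse, from the raw counts as CPM (left) and from the deposited normalized values (right), with a point per mouse and the group mean ± SD (n = 3). The genotypes overlap at the left (Ndr 0.01 ± 0.24, WT -0.01 ± 0.53) and lie apart at the right (Ndr -0.46 ± 0.06, WT 0.46 ± 0.06). The values at the right match an adjustment for derivation date that kept genotype, so their SD is not the spread of the raw counts.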

How the data were processed

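Organoid RNA of 12 libraries from 6 mice was analysed from a deposited table of raw read counts per gene. Per the submitters' processing notes, featureCounts, DESeq2 1.34.0 and GRCm39 were used; aligner, annotation release and strand setting are not given in the sources read here. A second deposited table holds the authors' normalized signal, whole multiples of 1 step per library that differ from the raw counts for most replication gene values, and it was used only as an alternative.

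Counts were tested with edgeR 4.0.16 in R 4.3.3 (filterByExpr, TMM, robust quasi-likelihood fit, Benjamini-Hochberg over all genes tested). One fit held the 12 libraries in 4 groups with 8 residual degrees of freedom and 15014 genes; genotype over both regions was tested on the counts of each mouse summed, with 4 residual degrees of freedom and 15401 genes. CPM are TMM-scaled, and log2 CPM used a prior count of 2. The scripts were tested on simulated data. Alternatives were DESeq2 1.42.0, RLE size factors, no filter on low counts, limma 3.58.1 on the normalized values (log2 of value plus 1), derivation date as a factor, the mouse as a block, each library left out and, chosen after seeing the data, an exon-length trend removed per library and the other lists without WT hilar 1225 or Ndr peripheral 1220. ComBat-seq of sva 3.50.0 was run to compare tables.

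Gene names came from GENCODE M21 (52093 identifiers matched), which also gave exon lengths. Hilar and peripheral cultures of a mouse come from the same animal and are paired; their deviations from the group means correlated at -0.31, -0.34 and 0.14 in Ndr mice 1219, 1220 and 1224 and at 0.33, -0.06 and 0.45 in WT mice 1221, 1223 and 1225. Members and lists were chosen with earlier results of these data known. Values by library are given for the gene of each role class with the highest mean CPM and for the 5 genes with the smallest p in each comparison, and 2 genes of highest mean CPM are named from each other list.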

Additional observations from a re-analysis of the deposited data

Results flagged for a closer look

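Fen1, the flap endonuclease of the lagging strand, was singled out because its hilar minus peripheral difference had opposite signs in the genotypes. It was -1.12, -1.90 and -1.55 on the log2 scale in Ndr mice 1219, 1220 and 1224, against 0.09, 0.04 and 1.80 in WT mice 1221, 1223 and 1225. The fitted interaction was -2.67 (SE 0.837, edgeR adjusted p = 0.994), so the difference between the genotypes did not pass the test. The opposite direction by mouse was not itself tested. Fen1 had 7 to 60 counts per library, and 84.2% of its exon length is shared with genes on the other strand.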

How the results depend on the processing

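By edgeR, the number of replication genes passing an adjusted p of 0.05 was 0 in every comparison, also with RLE size factors, no filter, the date factor, the length trend removed, the mouse as a block and each library left out. With the mouse as a block (replicate block), the median log2 difference of the members was -0.93 for region in Ndr mice, 0.03 in WT mice, -0.44 over both and -0.91 for the interaction, and no call changed. DESeq2 called 41 genes for genotype in hilar organoids, 6 in peripheral and 113 over both regions, and 72 genes, 1 of them a member, for region in Ndr mice, 3 over both genotypes and 4 for the interaction. Without the filter, 5 genes passed for genotype over both regions.

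The normalized values gave 1446 genes and 16 members for genotype in hilar organoids, 93 genes and a median of -0.57 in peripheral organoids, and 7215 genes, 37 members and a median of -0.91 over both regions. Those values match an adjustment that kept genotype, so these counts do not weigh genotype against the spread between mice in the raw counts. The normalized values gave 9 genes for region in Ndr mice, 4 over both genotypes and 2 for the interaction. With them, the peripheral genotype values of Fen1 (-0.048), Orc1 (-0.45), Tk1 (-0.67) and Rfc2 (-0.16), those over both regions of Rfc3 (-0.23) and Gins4 (-0.29), and the WT region value of Mcm3 (-0.36) changed sign. With date as a factor, the genotype medians were -1.42 in hilar organoids, -0.49 in peripheral organoids and -0.82 over both regions. In these fits only day 21, with Ndr mouse 1224 and WT mouse 1225, compares the genotypes within a date. The date factor turned the sign of the peripheral values of Orc1 (-0.22), Tk1 (-0.43), Rfc2 (-0.19) and Gins4 (-0.10) and of Rfc3 (-0.20) and Gins4 (-0.25) over both regions.

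With each library left out, the median ran from -1.06 to 0.11 for genotype in hilar organoids, -0.46 to 0.61 for region in WT mice and -1.46 to -0.33 for the interaction. The number of genes passing ran from 0 to 2 for genotype in peripheral organoids, 0 to 4 over both regions and 0 to 7 for region in Ndr mice. Over both regions, the value of Pold2 ran from -0.40 to 0.019, the highest without WT mouse 1225. The WT region values ran from -0.26 to 1.10 for Orc1, -0.10 to 0.57 for Rfc2 and -0.66 to 0.94 for Mcm3, each lowest, and below 0, without WT hilar 1225. The causes were not tested. The design is limited to 3 cultures a group, with 1 date that holds both genotypes, and Fen1 by its low counts.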
